A study of Rattus norvegicus with 11 samples.

Results

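Cytosolic ribosomal protein genes were examined in rat trigeminal ganglia (TRG) during a facial inflammation. A gene was included when an mRNA probe carried an accession whose RefSeq symbol had the form Rpl or Rps with a number, or was Rplp0, Rplp1, Rplp2 or Rpsa. S6 kinases and mitochondrial ribosomal proteins were left out, and of several probes for a gene the brightest on average was used. The rule gave 75 genes of 13888 named mRNA genes, 46 of the large (60S) and 29 of the small (40S) subunit. Other ribosomal protein genes, among them Rps18, were not matched by the rule and were not analysed here.

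The rats were male Wistar animals whose whisker pad received complete Freund's adjuvant (CFA, killed mycobacteria in paraffin oil) on 1 side, 50 µl at 1 mg/ml. Their TRGs, which hold the cell bodies of the facial sensory neurons, were taken on day 7. The CFA (ipsilateral) group held 6 arrays (rats 1, 2, 3, 5, 6 and 8) and the contralateral group 5 arrays (rats 1, 2, 3, 5 and 6), 1 ganglion per array. Both groups came from injected and anaesthetised rats, so a change that occurred on both sides was not measured here, and the age was not given. RNA of whole ganglia was measured, in which fewer cells of a type and less RNA per cell cannot be told apart.

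Ribosomal proteins and ribosomal RNA form the small subunit, which reads the mRNA, and the large subunit, which joins the amino acids. Most of these proteins are needed in equal numbers, and their genes are often described as expressed together. Many of their mRNAs begin with a run of pyrimidines (the TOP motif), through which the mTORC1 kinase controls their translation rather than their amount. Several members are used as reference genes in qPCR because they are expected to be steady.

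All 11 arrays carried sensory neuron RNA. The 10 measured marker genes of sensory neurons were well above background on each array. The mean log2 signal of the anterior pituitary markers spanned 5.89 to 15.01 in the CFA group and 6.64 to 13.92 in the contralateral group. Whether this admixture had a part in the values below was not tested. The arrays lay on 5 slides, as given by shared scan times. Slide 1 held contralateral rat 3, slide 2 held CFA rat 1 and contralateral rats 5 and 6, slide 3 held contralateral rats 1 and 2, slide 4 held CFA rats 2 and 3, and slide 5 held CFA rats 5, 6 and 8. Both groups were present on slide 2 alone.

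The 11 arrays did not receive the same correction from the scanner software, and this touched the members directly. The software subtracts the background and can then multiply each spot by a smooth factor across the array (multiplicative detrending). The file headers gave a detrending fit above 0 for 8 arrays, the 6 CFA arrays and contralateral rats 5 and 6 (0.0768 to 0.0936), and a fit of 0 for contralateral rats 1, 2 and 3. On these 3 arrays the processed and the background-subtracted signals of bright spots were equal to within 7.1e-06 on the log2 scale. On the 8 others their ratio depended on the position. The 532 rows of the array were split into 4 bands. In the last band, rows 400 to 532, the processed signal was raised by a median of 0.10 to 0.18 (log2), and in rows 134 to 266 it was lowered, by -0.12 to -0.09. Results are therefore given for the processed signal, which the authors' table follows, and for the signal before this step, an alternative chosen after seeing the data.

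**Figure D1:**
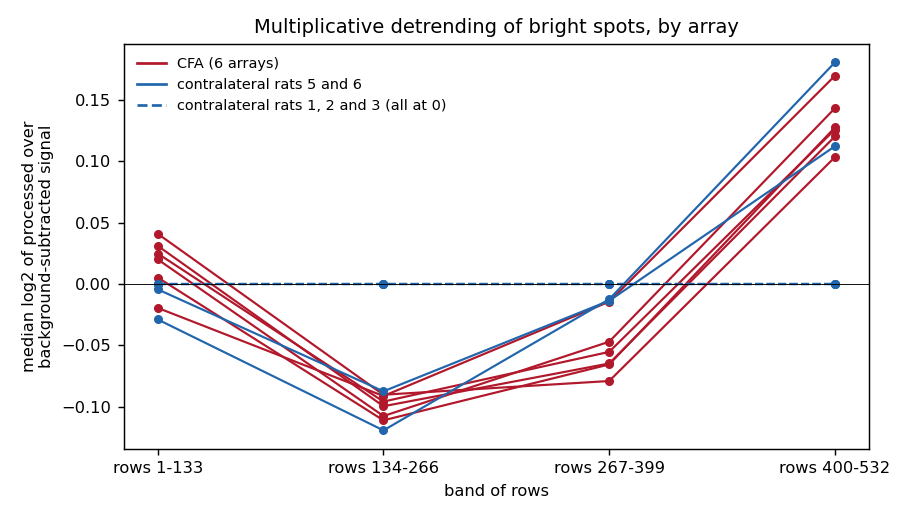
Median log2 ratio of the processed to the background-subtracted signal of bright spots (mean log2 signal of 15 or more) in each of 4 bands of rows, 1 line per array. The 8 detrended arrays rise to between 0.10 and 0.18 in the last band, and contralateral rats 1, 2 and 3 stay at 0.

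Most ribosomal protein mRNAs were high and steady on both sides. Of the 75 genes, 73 were well above background on all 11 arrays and 60 had a mean log2 signal of 15 or more. Rpl11, a protein of the large subunit that binds Mdm2, was well above background on 5 arrays, and Rpl27l2, a copy of Rpl27, on 0, and nothing is concluded from these probes. Quantile normalised log2 signals varied over the 11 arrays with a median SD of 0.12 for the members and 0.32 for all probes. Other bright probes had a median SD of 0.12 too, and the 60 bright members 0.11. The other 15 members had a median SD of 0.27. The low spread of the bright members was thus shared with bright probes in general.

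The CFA and the contralateral side differed little. The median log2 fold change (CFA over contralateral) of the 75 genes was -0.0027, and that of all 24684 probes was -0.04. By sign, 37 genes were higher and 38 lower. The study's threshold (unadjusted p of 0.05 or less in limma with an absolute fold change over 2) was passed by 0 of the 75 genes, against 2.02% of all probes. Without the fold criterion, 4 genes (5.33%) had a p of 0.05 or less, against 10.8% of all probes. Of these, 3 were higher (4.02% of all probes were) and 1 was lower (6.75%). After Benjamini-Hochberg adjustment over all probes 0 genes passed (0.0% of all probes), with a smallest adjusted p of 0.357 in limma.

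The 95% intervals below come from the processed signal with no block. They do not take in slide or detrending, which overlap with the group. The interval of Rpl18 (0.10 to 0.55) leaves out its value before detrending (-0.00081). The 95% interval of the fold change lay inside a 2-fold difference in either direction for 72 of the 75 genes (96.0%, against 77.6% of all probes). It lay inside 0.5 on the log2 scale for 64 genes (85.3%, against 40.9%). Of the members 60 were bright, and the shares over other bright probes alone were not computed. The intervals of Rpl10, Rpl13 and Rpsa reached a 2-fold difference. The estimate itself was below 0.2 in size for 66 genes.

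**Figure D2:**
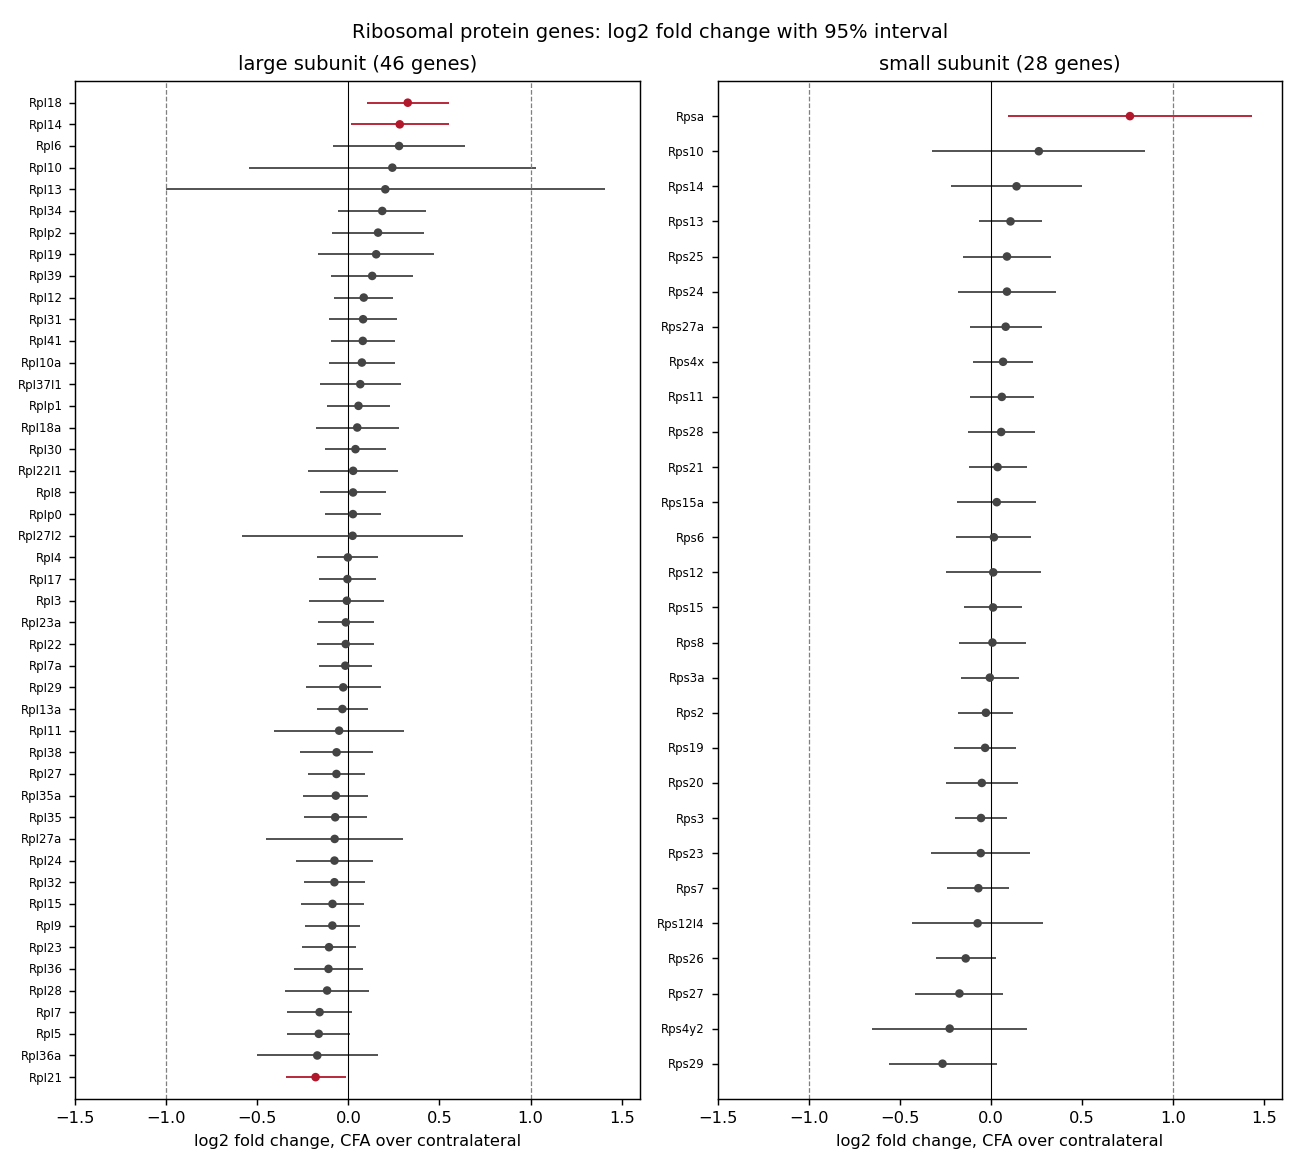
Log2 fold change (CFA over contralateral, 6 against 5 arrays) with its 95% interval from limma for the 46 large-subunit and 28 of the 29 small-subunit genes. Red marks the 4 genes at an unadjusted p of 0.05 or less (Rpl18, Rpl14 and Rpsa higher, Rpl21 lower), and the dashed lines mark a 2-fold difference.

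The subunits did not part. The median log2 fold change was -0.0069 for the 46 large-subunit genes (21 higher and 25 lower by sign) and 0.01 for the 29 small-subunit genes (16 higher and 13 lower). Their largest differences lay between -0.18 and 0.33 in the large and between -0.27 and 0.76 in the small subunit.

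The stalk of the large subunit, on which elongation factors land, is built of Rplp0, Rplp1 and Rplp2. Rplp0, also a common reference gene, had log2 signals of 17.11, 17.09, 17.23, 17.03 and 17.13 in contralateral rats 1, 2, 3, 5 and 6, and 17.03, 17.16 and 17.21 as the lowest, median and highest CFA value. The groups overlapped fully, and the log2 fold change was 0.025 (95% interval -0.13 to 0.18, limma). Rplp1 had contralateral signals of 17.35, 17.37, 17.35, 17.34 and 17.46 and CFA signals from 17.29 to 17.57 with a median of 17.44. Its probe is printed at 10 places on the array, and the SD of these single spots within an array had a median of 0.090. The mean of the 10 spots had an SD of 0.093 over the arrays, which is not the same quantity. Rplp2 lay in the last band of rows, with contralateral signals of 17.34, 17.47, 17.32, 17.65 and 17.65 and CFA signals from 17.41 to 17.89 with a median of 17.68. Its log2 fold change was 0.16 (exact permutation p = 0.160) in the processed signal and 0.03 (0.706) before detrending.

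Rpl18, a protein of the large subunit, had the smallest p of the members. Its log2 signals were 15.90, 15.95, 16.19, 16.28 and 16.31 in contralateral rats 1, 2, 3, 5 and 6, and 16.32, 16.46 and 16.63 as the lowest, median and highest CFA value. The groups did not overlap, which held for 1 of the 75 genes (1.33%) and for 1.19% of all probes. The log2 fold change was 0.33 ± 0.10 (SE, p = 0.00893, limma, exact permutation p = 0.00217, the smallest that 462 splits allow, adjusted p = 0.357), and it was above 0 in 5 of 5 rats. Its spot lies in row 520. Before detrending the contralateral signals were 15.90, 15.95, 16.19, 16.05 and 16.16 and the CFA signals ran from 15.85 to 16.18 with a median of 16.05. The groups then overlapped, and the log2 fold change was -0.00081 (exact permutation p = 0.994). In the 8 detrended arrays it was 0.16 and not called, and on slide 2 alone it was 0.02.

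Rpl14, another large-subunit protein (row 476), followed the same course. The contralateral signals were 16.60, 16.71, 16.86, 17.01 and 16.99, and the CFA signals 16.87, 17.08 and 17.46 (lowest, median, highest), so that the groups overlapped. The log2 fold change was 0.28 ± 0.12 (p = 0.0414, limma, exact permutation p = 0.0390) in the processed signal and 0.00018 (0.994) before detrending. In the 8 detrended arrays it was 0.11 and not called, and on slide 2 alone it was -0.02. With the rat as a block it was not called. Over the 11 arrays, after removal of the group means, Rpl14 and Rpl18 correlated at r = 0.92 in the processed signal and 0.78 before detrending, a description of spots near each other on the same arrays.

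Rpsa, the laminin receptor that also serves as a protein of the small subunit, showed the largest difference of the members. Its log2 signals were 12.38, 13.28, 12.89, 13.26 and 13.66 in contralateral rats 1, 2, 3, 5 and 6. The CFA signals were 13.18, 13.81, 14.56, 14.20, 14.23 and 13.17 in rats 1, 2, 3, 5, 6 and 8. The groups overlapped, with CFA rats 1 and 8 inside the contralateral range, and the CFA side was higher in 5 of 5 rats. The log2 fold change was 0.76 ± 0.30 (p = 0.0286, limma, exact permutation p = 0.0476, adjusted p = 0.435). Before detrending (row 497) it was 0.51 (exact permutation p = 0.123), on slide 2 alone it was -0.28, and in the 8 detrended arrays it was 0.40 and not called. With the rat as a block it was 0.90 and called. Rpl6, a large-subunit protein (row 517), varied with Rpsa over the arrays (r = 0.96 after removal of the group means, 0.96 before detrending, n = 11). In the processed signal this was the highest correlation of a member with Rpsa, and the lowest was -0.89. The log2 fold change of Rpl6 was 0.28 (exact permutation p = 0.132), and with the rat as a block Rpl6 and Rps10 were called too (0.36 and 0.45). Rpl6 was lowest in contralateral rat 1 (14.01) and highest in CFA rat 3 (15.02), the same arrays as for Rpsa.

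Rpl21, a large-subunit protein in row 210, was the member called lower. The contralateral signals were 17.06, 17.04, 17.16, 16.88 and 16.93 and the CFA signals 16.76, 16.84 and 16.90 (lowest, median, highest). Contralateral rat 5 lay inside the CFA range and the CFA side was lower in 5 of 5 rats. The log2 fold change was -0.18 ± 0.08 (p = 0.0353, limma, exact permutation p = 0.00433). Before detrending it was -0.09, which limma did not call (unadjusted p = 0.150) while the exact permutation p was 0.00866, and with the rat as a block it was not called. In the 8 detrended arrays it was -0.07 and not called, and on slide 2 alone it was -0.0018. Rpl5, Rps29, Rpl7 and Rps26 had some of the next smallest unadjusted p-values among the genes lower by sign (0.0614 to 0.0931, limma), with log2 fold changes of -0.27 to -0.14. Before detrending these 4 lay between -0.18 and -0.07. Rpl5 belongs to the 5S particle with Rpl11, and Rps29 was low in CFA rat 1 (16.69) against 17.32 to 17.39 in the other CFA arrays. It was the 1 gene called with the slide or the scan day as a block, fits that rest on CFA rat 1 for the comparison.

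**Figure D3:**
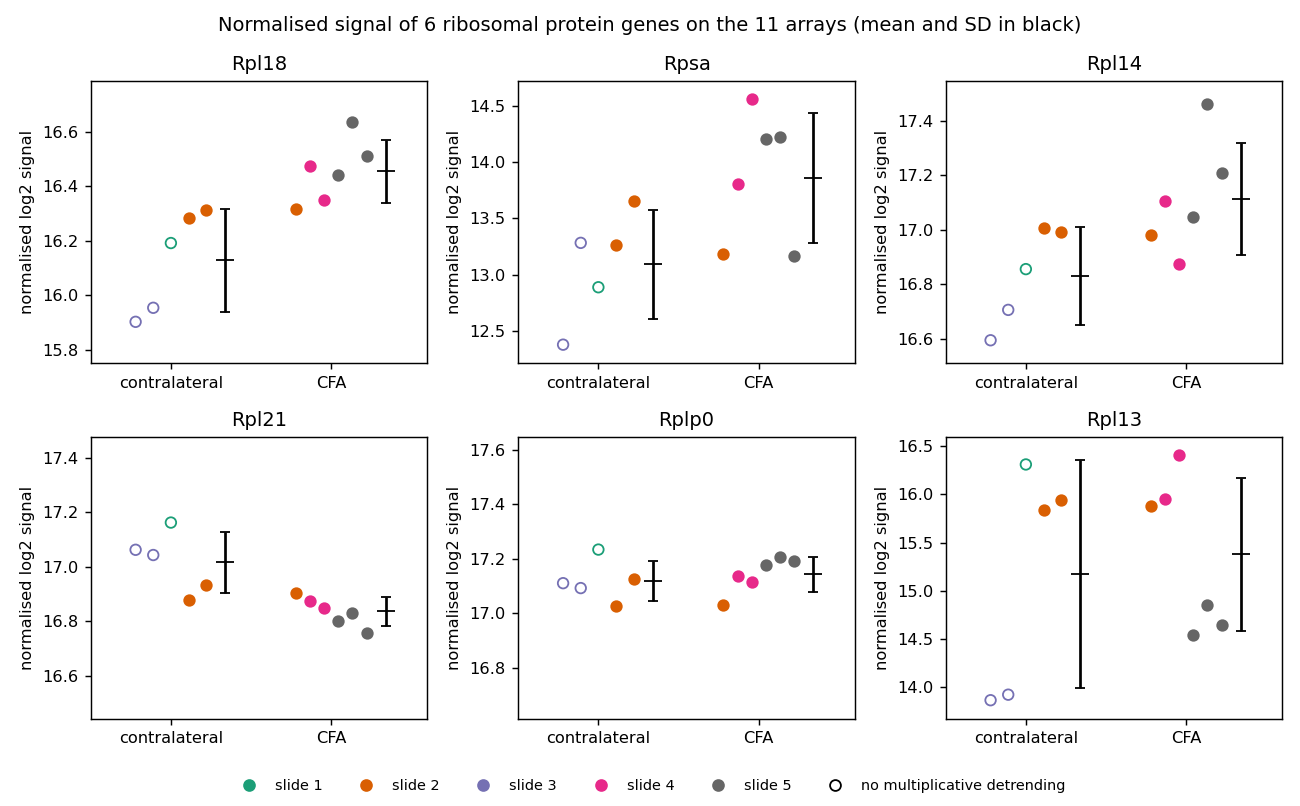
Normalised log2 signal of Rpl18, Rpsa, Rpl14, Rpl21, Rplp0 and Rpl13 on each of the 11 arrays by group, coloured by slide, with open points for the 3 arrays without multiplicative detrending and the group mean and SD in black. Rpl18, Rpl14 and Rpl21 part the open points from the filled ones, Rplp0 is flat, and Rpl13 follows the slide.

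The fold changes varied with the position on the array. The 21 members in the last band of rows had a median log2 fold change of 0.08, 16 were higher by sign, and all 3 genes called higher lay there. In rows 134 to 266 the median of 24 members was -0.02, and in rows 267 to 399 that of 16 members was -0.05. Other bright probes with 1 spot moved alike, with medians of 0.09 in the last band and -0.08 and -0.06 in the middle ones. Before detrending the members' medians were -0.03, 0.04, 0.00092 and 0.00018 from the first to the last band, those of the other bright probes lay between -0.02 and -0.01, and limma called 0 members by its unadjusted p (9.23% of all probes). The 8 detrended arrays alone gave 1 gene, Rps26, lower (6.35% of all probes, 2.92% lower). There the last band still had a median of 0.09 for the other bright probes and of 0.03 for the members.

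**Figure D4:**
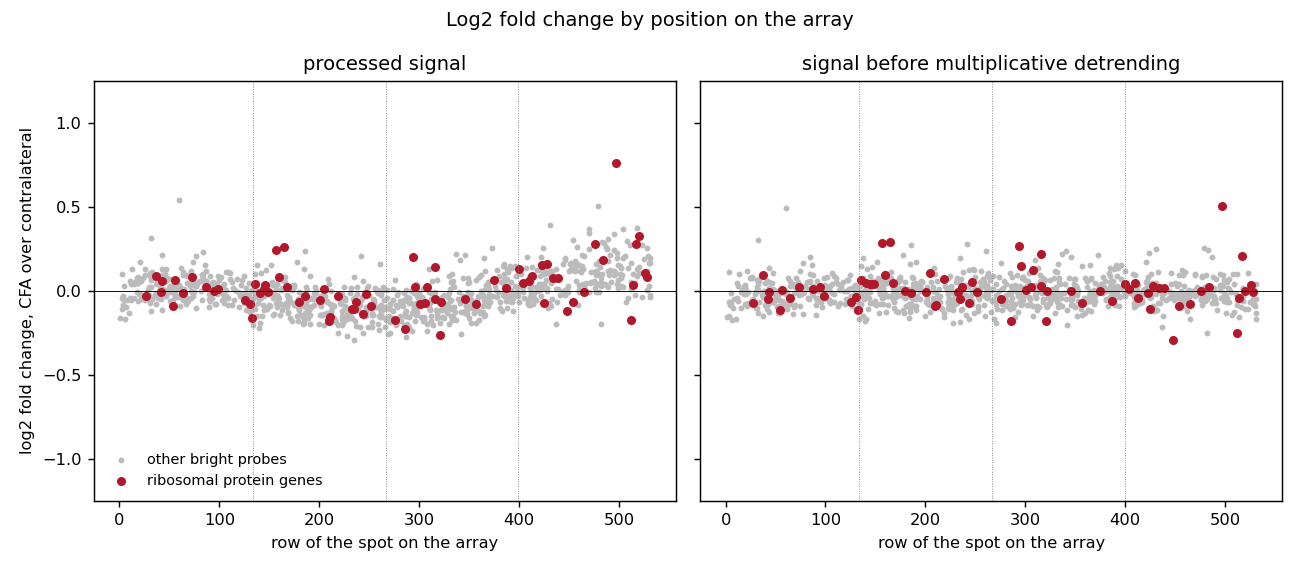
Log2 fold change (CFA over contralateral) against the row of the spot for 72 of the 73 members with 1 spot (red) and 950 other bright probes (grey), in the processed signal (left) and before multiplicative detrending (right). On the left both kinds of probe bend upwards in the last band (medians 0.08 and 0.09), and on the right the bend is absent.

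Rpl13a, a large-subunit protein and a frequent qPCR reference gene, had an SD over the 11 arrays of 0.043, the lowest of the members, for a mean of 10 spots where 73 members have 1. The SD of these spots within an array had a median of 0.084. The log2 signals were 16.62, 16.60, 16.60, 16.66 and 16.72 on the contralateral side and 16.56, 16.61 and 16.65 (lowest, median, highest) on the CFA side. The groups overlapped at a log2 fold change of -0.03 (95% interval -0.17 to 0.11, limma). Before detrending the contralateral signals were 16.62, 16.59, 16.60, 16.61 and 16.66 and the CFA signals 16.50, 16.55 and 16.59 (lowest, median, highest). The groups then did not overlap, in 1 of 75 genes against 0.982% of all probes. The log2 fold change was then -0.07, with an exact permutation p of 0.00433 and an unadjusted p of 0.263 in limma. A second probe of the gene, with 1 spot, had contralateral signals of 16.69, 16.63, 16.71, 16.57 and 16.60 and CFA signals of 16.43, 16.47 and 16.61 (lowest, median, highest). Its SD over the arrays was 0.098 and its log2 fold change was -0.15 (exact permutation p = 0.0108, lower in 5 of 5 rats, not called in limma), or -0.06 before detrending. The probes of Rpl13a thus differed in the size of the change in the processed signal (-0.03 and -0.15). Before detrending they were alike (-0.07 and -0.06). The limma test shares its variance over all probes, so the SE of a member was not below 0.063 even where the arrays agreed more closely. When the shared variance was allowed to depend on the signal, Rpl13a, Rpl5 and Rpl21 passed an unadjusted p of 0.05 in limma before detrending (9.25% of all probes, 5.84% lower), at log2 fold changes of -0.07, -0.12 and -0.09.

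Rps6 is the small-subunit protein that S6 kinases phosphorylate. Its contralateral signals were 16.96, 16.93, 16.95, 17.12 and 17.18 and its CFA signals 16.87, 17.09 and 17.20 (lowest, median, highest), with a log2 fold change of 0.02 (95% interval -0.19 to 0.22, limma). Rps27a, made as a fusion with ubiquitin, had a log2 fold change of 0.08 (exact permutation p = 0.288). Among the copies, Rps4x and Rps4y2 had 0.07 and -0.23 (exact permutation p = 0.223 and 0.290), Rpl22l1 0.03 and Rpl37l1 0.07. None of these 4 passed an unadjusted p of 0.05 in limma. Ribosomal proteins have many near-identical copies in the rat genome, and how far a probe also binds such copies was not tested.

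Much of the members' variance lay between slides, as did that of all probes, and pairs of members correlated weakly at the median. The share of a gene's variance that lay between slides had a median of 73.1% for the members and 66.8% for all probes. It was over 90% for 11 members, and before detrending the members' median was 63.4%. The share also holds the group difference and, in the processed signal, the unequal detrending. With 5 slides for 11 arrays, part of it arises without any slide effect. Between the 2775 pairs of members the correlation over the 11 arrays, after removal of the group means, had a median of 0.11. Its quartiles were -0.23 and 0.42, and the correlation between other probes was not computed. The median deviation of all 75 genes from their own means spanned -0.05 to 0.06 in the CFA group and -0.03 to 0.05 in the contralateral group. No array was thus high or low for the whole set. Within rats 1, 2, 3, 5 and 6 the members' median difference was 0.0036, -0.04, -0.04, 0.03 and 0.03, and 9 genes (12.0%, against 13.2% of all probes) had the same sign in 5 of 5 rats.

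**Figure D5:**
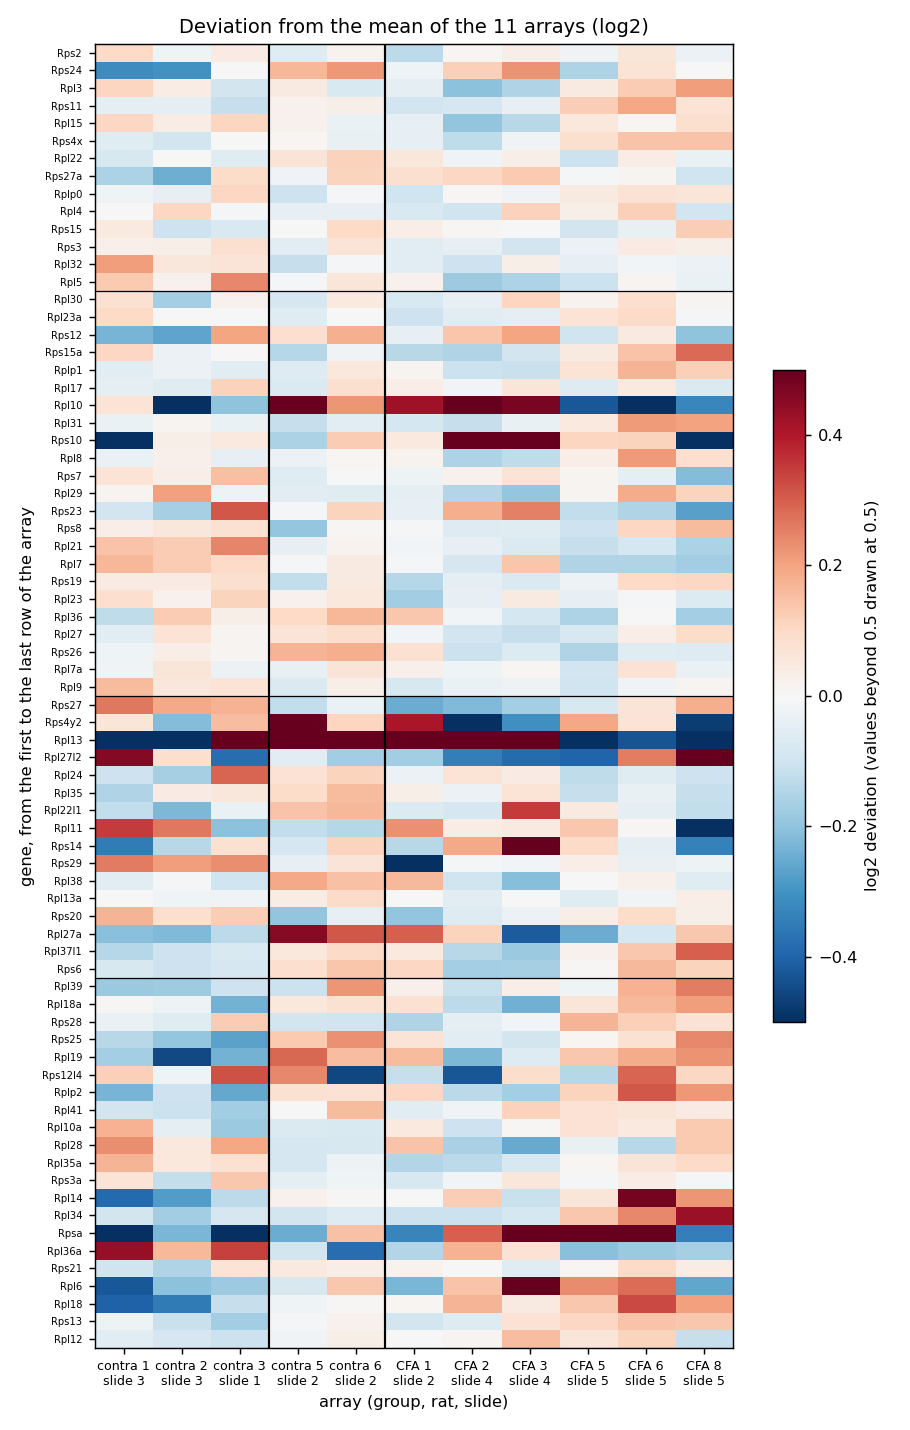
Deviation of 74 of the 75 genes from its mean over the 11 arrays (log2, blue low and red high), with genes in the order of their rows on the array and arrays named by group, rat and slide. The vertical lines set apart the 3 arrays without multiplicative detrending (left) and the CFA arrays (right), and the horizontal lines part the bands of rows. Rpl13 is high on slides 1, 2 and 4 and low on slides 3 and 5.

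Rpl13, a large-subunit protein singled out after its values were seen, was the most variable member (SD 0.94). Its log2 signals were 13.87 and 13.92 on slide 3 (contralateral rats 1 and 2) and 14.54, 14.86 and 14.65 on slide 5 (CFA rats 5, 6 and 8). On slides 1, 2 and 4 they were 15.84 to 16.41, in both groups. The lowest and the highest array differed 5.83-fold, and 98.1% of the variance lay between slides, while the groups differed by 0.20 (exact permutation p = 0.729). On slide 2 alone the difference was -0.02. Rps27a, Rps12 and Rpl24 had the highest correlations with Rpl13 (r = 0.93, 0.92 and 0.91, n = 11), within much smaller ranges. The lowest correlation of a member with Rpl13 was -0.76. In total 7 members had an SD over 0.3, namely Rpl13, Rpsa, Rpl10, Rps10, Rpl27l2, Rps4y2 and Rpl6.

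The starts of the genes were read from RefSeq (GRCr8), which held the start of 60 of the 75 genes. A run of at least 6 pyrimidines that begins with C within 10 bases of the annotated start was found for 38 of these (63.3%), against 17.8% of all 33469 starts and 17.3% of 52 mitochondrial ribosomal protein genes. The letters CTTTCC on the sense strand, which overlap such runs, stood within 30 bases of the start for 28.3% of the members and 2.59% of all starts, and on the other strand for 1.67% and 2.78%. The genes the comparison turned on are shown with the 15 bases before and the 15 bases from the start, 5′ to 3′, and capitals mark the run where one begins within 10 bases of the start.
Rpl14: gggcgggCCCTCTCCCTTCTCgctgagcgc
Rpl13a: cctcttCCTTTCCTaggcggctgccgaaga
Rplp1: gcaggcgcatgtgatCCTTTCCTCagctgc
Rpl18: tctggacctggtctagcaggaggcgccatc
Rpl21: ttcctttccgccggggcagccatcttccag
Rpsa: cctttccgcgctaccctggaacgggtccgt
They lie at chr8:129163605-129163634 (Rpl14, plus strand), chr1:104748899-104748928 (Rpl13a, minus), chr8:71290858-71290887 (Rplp1, minus), chr1:105325255-105325284 (Rpl18, plus), chr12:13386139-13386168 (Rpl21, minus) and chr8:128728864-128728893 (Rpsa, plus). The 38 genes with a run had a median log2 fold change of -0.0040 and the 22 without one 0.01. Rpsa and Rpl21 count among the 22 although a pyrimidine run stands just outside the window. This split therefore depends on the annotated start.

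Genes that work beside the ribosomal proteins were called about as often as all probes (10.8%, with 4.02% higher and 6.75% lower), apart from the mTORC1 list and the p53 targets (0 of 14). The share was 7.94% for the mitochondrial ribosomal proteins, 10.5% each for ribosome biogenesis and translation factors and 12.5% for the ribosome partners. By limma's unadjusted p, at the same limit as above, 2 of 63 mitochondrial ribosomal protein genes were higher and 3 lower, led by Mrpl44 (-0.24, exact permutation p = 0.00649) and Mrpl55 (0.78, 0.0303). Mrpl55 had low mean log2 signals, 5.56 in the CFA and 4.78 in the contralateral group. Its log2 fold change was 0.07 in the 8 detrended arrays and -0.16 on slide 2 alone. Of 38 ribosome biogenesis genes 1 was higher and 3 were lower, led by Sbds, which frees the large subunit for use (0.37, exact permutation p = 0.00866), and Emg1, a methyltransferase of ribosomal RNA (-0.28, 0.00649). Emg1 had low mean log2 signals too, 4.9 in the CFA and 5.2 in the contralateral group. Of 38 translation factors 1 was higher and 3 were lower, led by Eif1 (0.30, exact permutation p = 0.0216) and Eif4g2 (-0.26, 0.0173), both of the initiation of translation. Of 8 ribosome partners 1 was higher, Btf3 of the nascent chain complex (0.25, exact permutation p = 0.00649), and of 14 p53 target genes, which respond when free ribosomal proteins bind Mdm2, 0 were called. Before detrending, the counts were 1 higher and 1 lower (mitochondrial), 0 and 4 (biogenesis), 0 and 0 (translation factors), 0 and 0 (partners) and 1 and 0 (p53), against 3.39% higher and 5.85% lower of all probes. The values in parentheses are log2 fold changes.

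Of 16 measured genes of mTORC1 and the S6 kinases, 3 were higher and 3 lower, 37.5% against 10.8% of all probes. Rraga, a GTPase that brings mTORC1 to the lysosome, had 0.38 (exact permutation p = 0.00866), and Eif4ebp1, the repressor of cap-dependent translation that mTORC1 switches off, had -0.31 (0.0108). In the 8 detrended arrays no gene of this list was called (6.35% of all probes were), with 0.23 for Rraga and -0.27 for Eif4ebp1. On slide 2 alone Rraga had -0.05 and Eif4ebp1 -0.30. With the rat as a block, a fit to which CFA rat 8 adds nothing for lack of a contralateral array, 2 of the 16 genes were called (12.5%, against 9.9% of all probes), Rraga and Eif4ebp1. Of the other genes named here, Btf3 and Eif4g2 were not called in that fit, and 2 of the 14 p53 targets were. Before detrending, 0 were higher and 2 lower, with 0.16 (exact permutation p = 0.0909) for Rraga and -0.25 (0.0108) for Eif4ebp1. Sbds, Eif1 and Btf3 then had 0.15, 0.10 and 0.08 (exact permutation p = 0.0411, 0.255 and 0.232), none of them called in limma, and Rraga, Sbds, Eif1 and Btf3 all lay in rows 488 to 508. Emg1, Mrpl44 and Mrpl55 had -0.25, -0.15 and 0.80 before detrending (exact permutation p = 0.0173, 0.00649 and 0.0368) and were still called in limma. Eif4g2 had -0.17 (exact permutation p = 0.0390) and was not called in limma. In none of these lists did a gene pass after Benjamini-Hochberg adjustment in limma.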

How the data were processed

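Per the file headers, spots of the single-colour Arraystar arrays were read by version 11.0.1.1 of Agilent Feature Extraction. The authors deposited the resulting intensity values, linear and without normalisation between arrays, and a quantile normalised table of linear intensities used as an alternative. The log2 of the processed intensity was quantile normalised over 42136 non-control spots, with outlier spots set to missing beforehand, and repeated spots were averaged per probe. All 24684 probes were fitted with limma 3.58.1 under R 4.3.3 (two-sided, 6 CFA against 5 contralateral arrays, no covariate), and single genes were also tested by a two-sided exact permutation of the group means. No spot was saturated, and the number of arrays limits the precision. P-values rest on the spread between arrays within the groups. That spread holds the slides and the unequal detrending as well as the ganglia of 6 rats, of which 5 gave both sides.

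The alternatives were another background correction (on the median spot signal, since the mean signal planned for it was not used here), scaling, filter, variance model, blocks for rat, slide and scan day, array position, probe choice and leaving out each array. The signal before multiplicative detrending was floored at the lowest processed signal of its array. Equal rat numbers mean the same animal. The sides of a rat correlated across probes at r between -0.08 and 0.13 after removal of the group means, over 0.1 in 1 of 5 rats.

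The named genes were the 8 members with the smallest p in each direction, the stalk proteins, Rpsa, the copies, Rps6, Rpl13a and Rps27a, and up to 2 genes per list by p. Rpl10, Rpl11, Rpl13, Rpl24, Rps10 and Rps12 were named outside this rule after their values were seen, and 1 member that the rule names, counted in every total but not drawn, is not reported here. The members and lists were chosen with earlier results of these data known. Accessions were matched to symbols for 14274 of 15321 mRNA probes through RefSeq (GRCr8), for names only, and probe coordinates were not used.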

Additional observations from a re-analysis of the deposited data

Results flagged for a closer look

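Of 52 groups of arrays tested for 1 array apart from the rest (26 named genes, both groups), 4 held such an array, and chance gives about 5% of groups. Rpl34 had 16.66 in contralateral rat 2, below 16.75 to 16.78 in the other contralateral arrays. Rpl39 had 16.48 in contralateral rat 6, above 16.08 to 16.16 in the others. Rps29 had 16.69 in CFA rat 1, below 17.32 to 17.39, and Rpl22l1 had 13.50 in CFA rat 3, above 13.03 to 13.20. None of these 4 genes passed an unadjusted p of 0.05 in limma with all arrays and no block. Rpl39 did without contralateral rat 6, where its log2 fold change rose from 0.13 to 0.20. Rps29 did with the slide or scan day as a block, with the slide as a random effect and with an intensity trend in the variance.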

How the results depend on the processing

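The count past the study's threshold was 0 under each of the 29 alternatives. The count of members at an unadjusted p of 0.05 or less, 4 in the report, was 0 without background correction, before multiplicative detrending and without the 2 arrays of slide 3. It was 1 with the slide or scan day as a block or the slide as a random effect (Rps29 each time), 1 in the 8 detrended arrays (Rps26) and 1 after removal of the bright probes' row trend (Rpsa). It was 2 with normexp (Rpl13a and Rps3) and 2 with 75th percentile scaling (Rps27 and Rpsa). It was 7 after removal of the row trend of all probes, 3 of them among the 4, and 10 with an intensity trend in the variance, which held all 4. Leaving out 1 array gave 1 to 6, with 1 without contralateral rat 1, contralateral rat 3 or CFA rat 5 and 2 without contralateral rat 2 or CFA rat 6. The share of all probes called ranged from 4.39% to 15.6% over the alternatives not given in the report. The rat as a replicate block gave 4, of which 2 (Rpl18, Rpsa) were shared. It lost Rpl14 and Rpl21, added Rpl6 and Rps10, and changed no other member's call. The median log2 fold change moved to -0.11 with 75th percentile scaling (-0.08 for all probes) and to 0.0369 after removal of the row trend. Rpl18 was -0.0019 without background correction, -0.0018 with normexp and -0.00081 before detrending, with or without the intensity trend. The first 2 of these start from the median spot signal, which is also without the detrending, so that both choices changed at once. On slide 2 alone or with the slide as a block, Rpl14 was -0.0184 and Rpsa -0.28. The cause of these moves was not tested. The alternatives before detrending, with bright row trends, without slide 3 and with the 8 arrays were chosen after seeing the data. Groups and slides overlap on slide 2 alone, so the differences of most arrays and of the slides cannot be told apart. Dim probes (Rpl11, Rpl27l2) limit what can be said of these genes.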
